A study of Mus musculus with 104 samples.

Results

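Sort1, Slco2b1, Cbr2, Sh2d1b1, B4galnt1, Rcn3 and Susd1 are 7 of the 24940 genes listed in every table of a mouse RNA-seq series on liver macrophages. They were picked because their RNA was higher both in Kupffer cells with a deletion of Nr1h3 and in Kupffer cells with a deletion of Smad4. The RNA levels in those knockout Kupffer cells therefore chose the genes, and they are given below as a description without a test. The rule as stated used no value from the other experiments of the series, and the tests below were run on those. The genes were chosen with earlier results of these data known, so these tests may not be independent of the choice.

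The series holds 104 libraries in 47 groups of 2 to 4 libraries, deposited as 8 tables, each analysed on its own. The first knockout experiment has Kupffer cells labelled Nr1h3 flox/flox Clec4f-cre +/-, sorted as TIM4-positive or TIM4-negative (2 libraries each), and TIM4-positive Kupffer cells of Nr1h3 flox/flox mice (2 libraries). The same table holds macrophages grown from bone marrow for 7 days (BMDMs), labelled Nr1h3 KO or Nr1h3 WT (2 libraries each). The second knockout experiment has Smad4 flox/flox Clec4f-cre +/- Kupffer cells, TIM4-positive (3 libraries) or TIM4-negative (2 libraries), and Kupffer cells of Smad4 flox/flox mice (2 libraries). Clec4f is expressed by Kupffer cells, so the Cre acts in these cells of the liver, and both alleles of the floxed gene are also present in the controls. TIM4, encoded by Timd4, marks long-resident Kupffer cells.

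In the repopulation experiment, diphtheria toxin removed the Kupffer cells of Clec4f-cre/Rosa26iDTR mice, and incoming macrophages were collected 12, 24, 48, 72, 168 or 336 h later (2, 3, 2, 2, 3 and 3 libraries). The experiment also has 4 libraries of blood monocytes with high Ly6C from untreated C57BL/6J mice and 3 libraries of Kupffer cells from Clec4f-cre/Rosa26iDTR mice given PBS. In the Notch experiment, macrophages taken 24 h after toxin came from mice given LY411575, a gamma-secretase inhibitor (3 libraries), or antibodies to DLL1 and DLL4 (4 libraries), each with 2 control libraries. All 4 of these groups carry a C57BL/6J label where the series design names the toxin-receptor mice, and the mice were fasted, female in the LY411575 experiment and male in the antibody experiment. C57BL/6J BMDMs received DLL4, a ligand of Notch, with or without TGF-beta and DMHCA, a synthetic sterol ligand of LXR, for 24 or 72 h, or DMHCA alone for 24 h, or nothing. BMDMs labelled Smad4 flox/flox Clec4f-cre +/- and Smad4 flox/flox BMDMs were left untreated or were treated for 24 h. The treatments were TGF-beta, DLL4, DLL4 with DAPT, a second gamma-secretase inhibitor, and DLL4 with TGF-beta. For these cells the series design names LysM-cre. C57BL/6J bone marrow monocytes were cultured for 48 h untreated, with DLL4, or with desmosterol, a natural sterol ligand of LXR. Further groups received DLL4 with TGF-beta, or DLL4, TGF-beta and desmosterol together. Cells of untreated C57BL/6J livers were sorted by staining for the endothelial scavenger receptor STAB2 into low, intermediate and high fractions. The cultures and the sorted cells have 2 libraries per group. The sources used here give no ages for the mice. Whole reads recovered from the deposited values ran from 7830287 to 27776205 per library, and no 2 libraries of a group held the same values.

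Kupffer cells are the resident macrophages of the liver sinusoids and are renewed from blood monocytes when they are lost. Nr1h3 encodes LXR-alpha, a nuclear receptor that binds oxidised sterols and cholesterol precursors and switches on genes of lipid export and fatty acid synthesis. Smad4 encodes the partner that the receptor-activated SMAD proteins share when they carry TGF-beta and BMP signals to DNA. Both are known as factors that hold the identity of the Kupffer cell, together with Notch signals from the sinusoidal endothelium.

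The 7 genes have unlike roles. Sort1 encodes sortilin, a VPS10-domain receptor that sorts proteins between the Golgi, endosomes and lysosomes. Slco2b1 encodes a membrane transporter that takes up organic anions, and Cbr2 encodes a carbonyl reductase that is found in mice. Sh2d1b1 encodes a small SH2-domain adaptor that binds the tails of SLAM family receptors in mouse natural killer cells. B4galnt1 encodes the transferase that adds N-acetylgalactosamine in ganglioside synthesis. Rcn3 encodes reticulocalbin, a calcium-binding protein in the lumen of the endoplasmic reticulum, and Susd1 encodes a membrane protein with sushi domains.

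The genes lie apart from each other. In the mm10 build, the listed transcript of Sort1 spans chr3:108284064-108361519 and that of B4galnt1 spans chr10:127165156-127172340, both on the plus strand. Promoter sequences, from 250 bases before the start of the transcript to 50 after it, were found in the RefSeq table of build GRCm38.p6 for 5 of the 7 genes. They are shown because the genes were chosen on the loss of a nuclear receptor and of a SMAD protein. Capitals mark GGTCA, the core site of many nuclear receptors, and CAGAC, the SMAD element, on either strand, so that TGACC and GTCTG are the same motifs read from the other strand. The table holds 3 promoters of Slco2b1, and the window shown is that of the transcript listed in 7 of the 8 tables.
Slco2b1, chr7:99706793-99707092, minus strand: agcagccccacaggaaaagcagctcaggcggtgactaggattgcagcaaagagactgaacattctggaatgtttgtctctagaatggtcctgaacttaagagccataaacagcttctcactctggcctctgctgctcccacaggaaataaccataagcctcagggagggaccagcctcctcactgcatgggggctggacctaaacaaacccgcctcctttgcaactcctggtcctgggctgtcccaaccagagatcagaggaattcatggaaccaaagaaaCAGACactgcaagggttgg
Cbr2, chr11:120731972-120732271, minus strand: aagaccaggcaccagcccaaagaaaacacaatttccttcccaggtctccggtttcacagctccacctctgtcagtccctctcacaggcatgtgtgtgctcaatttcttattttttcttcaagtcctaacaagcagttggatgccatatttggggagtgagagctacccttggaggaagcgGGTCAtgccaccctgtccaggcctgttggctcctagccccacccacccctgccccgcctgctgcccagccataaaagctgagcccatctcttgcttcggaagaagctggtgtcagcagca
Sh2d1b1, chr1:170277068-170277367, plus strand: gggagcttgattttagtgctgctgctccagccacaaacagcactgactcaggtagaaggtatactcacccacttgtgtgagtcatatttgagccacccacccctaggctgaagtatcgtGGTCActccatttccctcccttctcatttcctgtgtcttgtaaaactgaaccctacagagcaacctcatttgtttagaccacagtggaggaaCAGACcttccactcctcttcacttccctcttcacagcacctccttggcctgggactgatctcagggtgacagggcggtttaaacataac
Rcn3, chr7:45092164-45092463, minus strand: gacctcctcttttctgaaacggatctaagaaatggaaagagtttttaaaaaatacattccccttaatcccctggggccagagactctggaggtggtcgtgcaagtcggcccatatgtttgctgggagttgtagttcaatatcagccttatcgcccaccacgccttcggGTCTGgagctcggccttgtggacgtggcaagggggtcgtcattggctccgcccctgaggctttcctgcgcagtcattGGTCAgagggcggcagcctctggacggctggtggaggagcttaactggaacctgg
Susd1, chr4:59438584-59438883, minus strand: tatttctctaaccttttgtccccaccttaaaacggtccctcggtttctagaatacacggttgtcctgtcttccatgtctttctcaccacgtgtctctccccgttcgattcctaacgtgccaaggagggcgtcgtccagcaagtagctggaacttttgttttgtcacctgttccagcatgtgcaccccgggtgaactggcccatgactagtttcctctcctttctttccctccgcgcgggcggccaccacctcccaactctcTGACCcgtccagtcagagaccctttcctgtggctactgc

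GGTCA was found in 4 of these 5 windows, those of Cbr2, Sh2d1b1, Rcn3 and Susd1, and in 40.5% of the 32851 promoters of the table. CAGAC was found in 3 of the 5, those of Slco2b1, Sh2d1b1 and Rcn3, against 49.6% of all promoters. The core of the LXR element, GGTCANNNNNGGTCA, which holds GGTCA at both ends with 5 bases between, was in 0.0761% of all promoters and in 0 of the 5 windows. The window of Sh2d1b1 held 2 matches to TGANTCA, the AP-1 motif, which is in 7.81% of all promoters, and the window of Cbr2 held TGGGAA, the RBPJ core, which is in 25.6%. The other promoters of Slco2b1 have windows at chr7:99711291-99711590, with 1 match to GGTCA, 2 to CAGAC and 1 to TGANTCA, and at chr7:99695760-99696059, with 1 to GGTCA, 1 to CAGAC and 1 to TGGGAA. All motifs were searched on both strands. These matches describe the letters of the windows and are not binding sites.

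RNA levels are in TPM, a measure of transcripts scaled for their length and for the library. In the Kupffer cells that chose the genes, each gene was higher in every knockout library than in every control library of its table. Sort1 had 42.2 and 42.8 TPM in TIM4-positive cells labelled Nr1h3 knockout, 26.9 and 24.4 TPM in the TIM4-negative cells and 1.30 and 1.78 TPM in control cells. In the Smad4 experiment Sort1 had 73.9, 55.6 and 46.2 TPM in TIM4-positive knockout cells, 42.7 and 19.1 TPM in TIM4-negative knockout cells and 1.60 and 0.752 TPM in control cells. The sorting receptor was thus low in both sets of controls and far above them in all knockout libraries.

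Sh2d1b1, the SLAM adaptor, had the same shape, with 18.7 and 17.1 TPM in TIM4-positive and 18.5 and 16.2 TPM in TIM4-negative cells labelled Nr1h3 knockout, and 0.339 and 0.449 TPM in control cells. It had 12.7, 9.14 and 13.2 TPM in TIM4-positive Smad4 knockout cells, 15.6 and 12.1 TPM in TIM4-negative knockout cells and 0.132 and 0.424 TPM in control cells. Its near copy Sh2d1b2, which could share reads with it, was listed at 0 in every Kupffer library of both tables. The ganglioside transferase B4galnt1 had 65.8 and 54.5 TPM in TIM4-positive and 65.2 and 62.7 TPM in TIM4-negative cells labelled Nr1h3 knockout, and 2.02 and 11.5 TPM in control cells. It had 81.9, 49.9 and 80.1 TPM in TIM4-positive and 72.2 and 48.6 TPM in TIM4-negative Smad4 knockout cells, and 14.4 and 8.12 TPM in control cells. The 2 control libraries of the Nr1h3 table were far apart for B4galnt1 compared with its knockout libraries.

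Slco2b1, Cbr2, Rcn3 and Susd1 stood higher in Smad4 knockout cells than in cells labelled Nr1h3 knockout, and so did Sort1 in TIM4-positive cells. These are levels in tables that were made separately and were not tested against each other. The transporter Slco2b1 had 114, 42.8 and 74.4 TPM in TIM4-positive and 83.9 and 50.6 TPM in TIM4-negative Smad4 knockout cells, and 1.01 and 0.743 TPM in control cells. In the Nr1h3 table Slco2b1 had 11.4 and 8.72 TPM in TIM4-positive and 4.07 and 4.40 TPM in TIM4-negative knockout cells, and 1.97 and 2.00 TPM in control cells. It is the gene of the 7 with the lowest difference in TIM4-negative cells labelled Nr1h3 knockout, 0.81 on the log2(TPM + 1) scale.

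The reductase Cbr2 varied most between Smad4 knockout libraries, with 124, 21.8 and 55.4 TPM in TIM4-positive cells and 164 and 56.8 TPM in TIM4-negative cells, against 1.49 and 2.04 TPM in control cells. It had 8.91 and 11.1 TPM in TIM4-positive and 5.64 and 9.81 TPM in TIM4-negative cells labelled Nr1h3 knockout, and 1.70 and 1.02 TPM in control cells. Rcn3, the calcium-binding protein of the endoplasmic reticulum, had 179.7, 63.5 and 103 TPM in TIM4-positive and 242 and 127 TPM in TIM4-negative Smad4 knockout cells, and 9.54 and 7.74 TPM in control cells. Among the TIM4-positive Smad4 knockout libraries, the second was the lowest for Slco2b1, Cbr2, Sh2d1b1, B4galnt1, Rcn3 and Susd1.

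In the Nr1h3 table Rcn3 had 18.5 and 19.5 TPM in TIM4-positive and 23.1 and 29.5 TPM in TIM4-negative knockout cells, and 5.30 and 3.88 TPM in control cells. Susd1 had 22.4 and 25.6 TPM in TIM4-positive and 20.7 and 24.1 TPM in TIM4-negative cells labelled Nr1h3 knockout, and 4.56 and 4.81 TPM in control cells. In the Smad4 table it had 57.5, 29.0 and 38.7 TPM in TIM4-positive and 53.9 and 26.6 TPM in TIM4-negative knockout cells, and 2.96 and 2.27 TPM in control cells. TIM4-negative and TIM4-positive knockout cells overlapped for every gene except Sort1 in the Smad4 table, and in the Nr1h3 table they overlapped for Cbr2, Sh2d1b1, B4galnt1 and Susd1. Sort1 was lower in TIM4-negative than in TIM4-positive knockout cells in both tables. The first Smad4 knockout library of each fraction shares a number in its title, so the fractions may not be independent of each other.

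**Figure D1:**
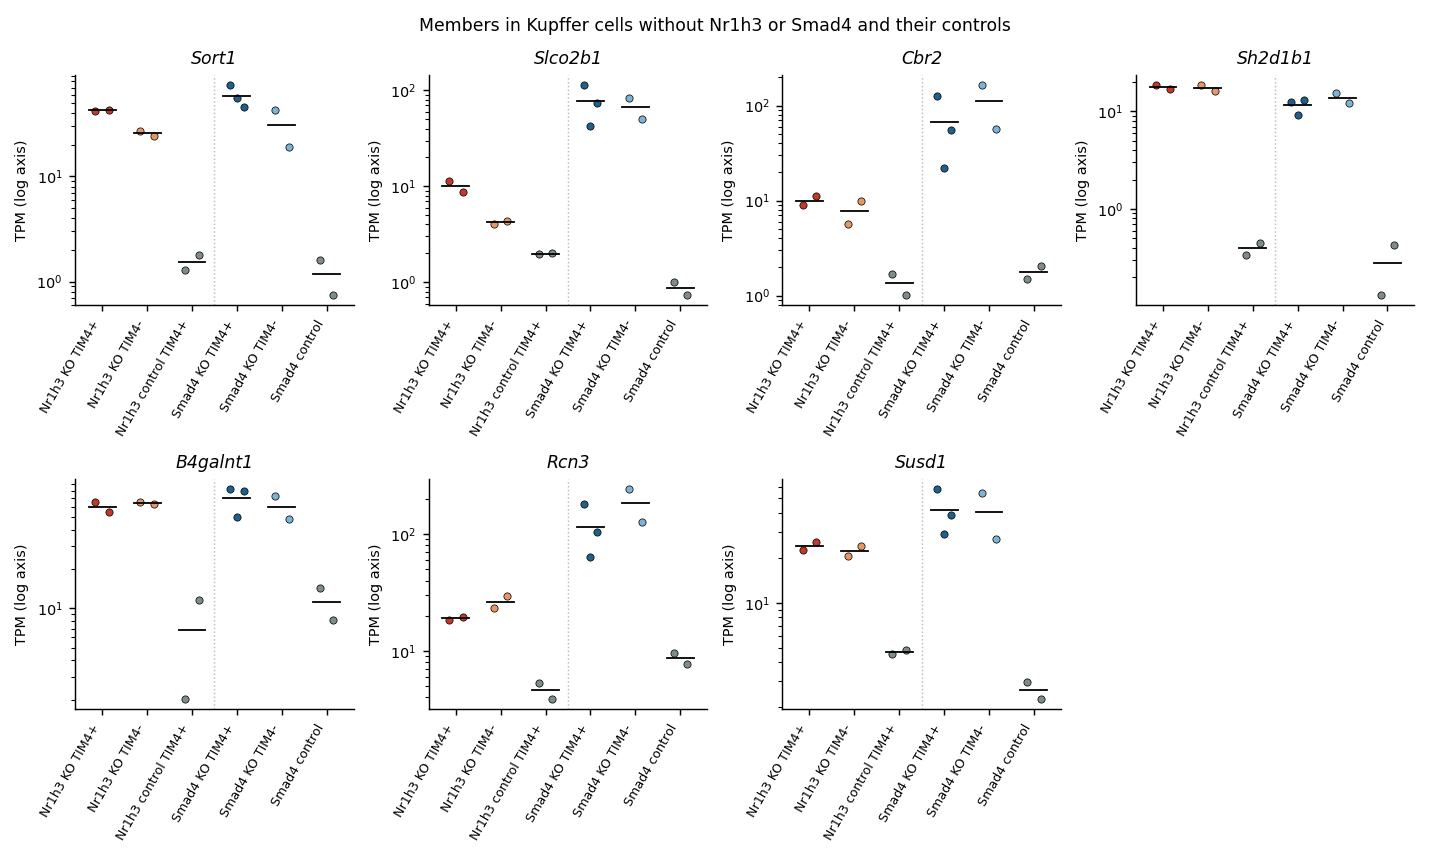
RNA levels in TPM on a log axis in Nr1h3 and Smad4 knockout Kupffer cells, TIM4-positive and TIM4-negative, and in their controls. Each point is a library and each bar is the group mean; every knockout library lies above every control library of its table, as the choice of the 7 genes requires for TIM4-positive cells.

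A gene is called higher or lower here where its p from limma, adjusted by Benjamini and Hochberg's method over all genes tested in the table, was below 0.05 and its change on log2(TPM + 1) was at least 2-fold. In TIM4-positive cells, 135 genes were called higher with the Nr1h3 label and 58 with Smad4 knockout, among 9713 genes tested in both tables, and 27 were called in both, which is 20% of the first list and 46.6% of the second. In TIM4-negative cells 182 and 73 genes were called higher and 36 were in both. With the Nr1h3 label, the rule called 2.86% of all genes tested in TIM4-positive cells and 4.16% of those in TIM4-negative cells, counting both directions. With Smad4 knockout it called 0.965% of all genes tested in TIM4-positive cells and 1.62% of those in TIM4-negative cells. No calls are given for the 7 genes here, and nothing is read from them against these shares. These contrasts chose them or share control libraries with those that did.

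Ranked by the smaller of the log2 differences in TIM4-positive cells, Sort1 was first (4.10 with the Nr1h3 label and 4.78 with Smad4 knockout) and Sh2d1b1 second (3.76 and 3.30). B4galnt1 ranked 4 (3.31 and 2.56), Cbr2 ranked 6 (2.23 and 4.31), Susd1 ranked 8 (2.13 and 3.51), Slco2b1 ranked 9 (1.88 and 5.27) and Rcn3 ranked 10 (1.85 and 3.48). The chemokine receptor gene Cx3cr1 (3.23 and 6.03), the collagenase gene Mmp13 (2.96 and 2.30) and the galectin gene Lgals1 (2.23 and 3.02) ranked between them and are not among the 7. Just below Rcn3 came Nfatc2, Glis3 and Ms4a4a, with smaller differences of 1.82, 1.75 and 1.72.

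The deleted genes were read as a check of the labels. Nr1h3 itself had 391 and 422 TPM in TIM4-positive cells labelled Nr1h3 knockout, 341 and 395 TPM in TIM4-negative ones and 409 and 393 TPM in control cells, so the level does not show the deletion. TPM summed over exons cannot tell which exons were read, and every direction drawn from these cells rests on the label. Of 17 LXR targets, 4 were called lower in the TIM4-positive cells and 0 higher, with differences for Cd5l of -2.76, Scd1 of -2.37, Apoc1 of -1.46 and Pltp of -1.07 on the log2 scale. Smad4 had 13.7, 21.5 and 19.5 TPM in TIM4-positive and 15.1 and 19.6 TPM in TIM4-negative knockout cells, against 35.7 and 33.4 TPM in control cells. The Smad4 knockout Kupffer cells also had less Nr1h3, with 203, 261 and 229.7 TPM in TIM4-positive and 155 and 188 TPM in TIM4-negative cells, against 358 and 391 TPM in control cells. Timd4 followed the sort, with 266 and 315 TPM in TIM4-positive and 5.84 and 5.22 TPM in TIM4-negative cells labelled Nr1h3 knockout, and 210.2, 336 and 385 TPM in TIM4-positive and 4.37 and 4.94 TPM in TIM4-negative Smad4 knockout cells.

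Markers of other cell types moved with the genotype in the same cells. The summed TPM of 17 genes of sinusoidal endothelium ran from 704 to 820 in TIM4-positive and from 709 to 740 in TIM4-negative cells labelled Nr1h3 knockout, and from 491 to 505 in control cells, with none of the 17 at 0. Stab2, one of the 17 and also on the list of 21 Kupffer identity genes given below, went the other way. It had 11.2 to 15.6 TPM in TIM4-positive and 10.8 to 13.5 TPM in TIM4-negative cells labelled Nr1h3 knockout, against 53.5 to 55.1 TPM in control cells. Clec4g and Pecam1, also of the 17, were higher in every knockout-labelled library than in the controls. In the Smad4 table the sum of the 17 ran from 507 to 578 in TIM4-positive knockout cells, 466.4 to 541.6 in TIM4-negative knockout cells and 443.5 to 480.7 in control cells. In liver cells sorted high for STAB2 the same sum ran from 32010 to 33410, and these cells had 66.8 and 94.0 TPM of Rcn3 and 63.9 and 38.1 TPM of Slco2b1, but 0 TPM of Cbr2 and 0 and 0.275 TPM of Sh2d1b1. A list of 6 B cell genes, all read in every group, summed to 64.1 to 70.7 TPM in TIM4-positive and 84.0 to 85.3 TPM in TIM4-negative cells labelled Nr1h3 knockout, against 24.7 to 27.8 TPM in control cells. In the Smad4 table it summed to 22.4 to 46.5 TPM in TIM4-positive and 38.3 to 59.2 TPM in TIM4-negative knockout cells, against 17.8 to 18.1 TPM in control cells. The B cell receptor gene Cd79a, one of the 6, did not follow this sum, with 0.510 to 0.697 TPM in TIM4-positive and 0.601 to 1.10 TPM in TIM4-negative cells labelled Nr1h3 knockout, against 1.23 to 1.26 TPM in control cells. The list of 6 erythroid genes summed to 7.40 to 9.32 TPM in TIM4-positive and 5.84 to 10.9 TPM in TIM4-negative cells labelled Nr1h3 knockout, against 92.9 to 93.8 TPM in control cells. In the Smad4 table it summed to 1.61 to 18.8 TPM in TIM4-positive and 2.41 to 2.85 TPM in TIM4-negative knockout cells, against 73.1 to 100.9 TPM in control cells. The erythroid sums of knockout and control cells did not overlap in either table. A list of 14 genes induced by tissue dissociation summed to 631 to 1397 TPM in TIM4-positive and 594 to 1128 TPM in TIM4-negative Smad4 knockout cells, against 1538 to 3212 TPM in control cells. In the Nr1h3 table the groups overlapped for this list, at 1076 to 1567 TPM in TIM4-positive and 1271 to 1656 TPM in TIM4-negative knockout-labelled cells, against 1025 to 1380 TPM in control cells. The part of the endothelial, B cell, erythroid and dissociation genes in the results was not tested.

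Markers of natural killer and T cells, which express SLAM adaptors, summed to 5.46 to 9.31 TPM in TIM4-positive cells labelled Nr1h3 knockout and 4.61 to 6.43 TPM in TIM4-negative ones, and to 8.78 to 10.6 TPM in control cells, over 11 genes. In the Smad4 table they summed to 5.10 to 8.97 TPM in TIM4-positive knockout cells, 6.23 to 19.7 TPM in TIM4-negative knockout cells and 1.62 to 15.1 TPM in control cells. The list of 21 Kupffer identity genes summed to 17750 to 19570 TPM in TIM4-positive and 13470 to 14010 TPM in TIM4-negative cells labelled Nr1h3 knockout, against 28350 to 28470 TPM in control cells. It summed to 19670 to 23740 TPM in TIM4-positive and 11110 to 13620 TPM in TIM4-negative Smad4 knockout cells, against 27680 to 27740 TPM in control cells. The summed TPM of 17 monocyte genes was lower in the knockout cells of both tables, 3793 to 4479 TPM in TIM4-positive cells labelled Nr1h3 knockout against 4718 to 5405 TPM in control cells, and 1868 to 3265 TPM in TIM4-positive Smad4 knockout cells against 5489 to 5587 TPM in control cells. Cx3cr1, one of the 17, went the other way in TIM4-positive cells, with log2 differences of 3.23 with the Nr1h3 label and 6.03 with Smad4 knockout. In bulk RNA, fewer cells of a type and less RNA per cell cannot be told apart.

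Few relatives of the 7 genes were called in the same contrasts, which is again a description. The calls of the 7 genes themselves are not counted, because their choice fixed them. Of 10 carbonyl reductases measured with the Nr1h3 label and 9 with Smad4 knockout, Cbr2 included, no other was called in TIM4-positive cells. Of 5 CREC proteins, which bind calcium like Rcn3 and include it, no other was called in both. Of the 8 SLAM receptors and adaptors tested in the Nr1h3 table, Sh2d1b1 included, Slamf9 was called, at 1.34. Of the 10 genes of ganglioside synthesis tested, B4galt6 was lower in TIM4-positive Smad4 knockout cells, at -1.06, where B4galnt1 was higher. Of 15 TGF-beta and SMAD targets tested in the Smad4 table, 1 was called higher in TIM4-positive knockout cells, Cx3cr1, and 0 lower.

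In the repopulation experiment, 6 of the 7 genes were higher in the incoming macrophages than in PBS Kupffer cells at one or more of the times up to 72 h, and most of the difference was gone at 168 h. Of the 7 genes, 3 were called higher than in PBS Kupffer cells at 12 h, 4 at 24 h, 5 at 48 h, 5 at 72 h, 1 at 168 h and 1 at 336 h, and 0 were called lower at any of these times. Limma-voom called 4, 5, 7, 5, 1 and 1 of them at the same times. Over all 11373 genes tested, the same rule called 23.8%, 14.7%, 18.5%, 10.9%, 3.99% and 3.82% in either direction at these times. The median log2 difference of the 7 genes was 0.91, 1.34, 1.52, 1.25, -0.20 and -0.61, and that of all genes tested lay between -0.06 and 0.06. All 6 comparisons share the 3 Kupffer libraries. No label states whether replicate libraries are separate mice or cultures, so the p-values here and below measure the spread between these libraries, which may be technical.

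Of the 7 genes, Cbr2 spanned the widest range. It had 4.64, 5.88, 4.62 and 6.26 TPM in blood monocytes, 44.3 and 51.5 TPM in macrophages at 12 h, 141, 204 and 138 TPM at 24 h and 267 and 241 TPM at 48 h. It then had 51.7 and 82.2 TPM at 72 h, 1.40, 1.77 and 1.92 TPM at 168 h and 1.28, 0.961 and 0.718 TPM at 336 h, against 1.84, 0.463 and 1.55 TPM in PBS Kupffer cells. From 12 to 72 h no library overlapped those of Kupffer cells, and at 168 and 336 h the groups overlapped. At 48 h the log2 difference from Kupffer cells (± SE) was 6.86 ± 0.25, adjusted p = 1.2e-12, and at 72 h it was 4.92 ± 0.25, adjusted p = 2.7e-10. The step to 12 h from monocytes was a rise (log2 difference 2.95 ± 0.24, adjusted p = 1.8e-08), as was that to 24 h from 12 h (log2 difference 1.71 ± 0.25, adjusted p = 0.00011). Cbr2 fell at 72 h against 48 h (log2 difference -1.94 ± 0.27, adjusted p = 0.0017) and at 168 h against 72 h (log2 difference -4.62 ± 0.25, adjusted p = 1.4e-09).

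Sh2d1b1 followed another course. It was already present in blood monocytes, at 19.6, 10.3, 15.5 and 13.5 TPM, and stayed near that level in macrophages at 12 h (10.2 and 14.5 TPM), 24 h (22.04, 10.8 and 17.1 TPM), 48 h (13.3 and 13.7 TPM) and 72 h (8.66 and 11.3 TPM). It had 4.47, 2.94 and 3.05 TPM at 168 h and 2.32, 1.87 and 1.87 TPM at 336 h, against 0.073, 0.230 and 0.396 TPM in PBS Kupffer cells, and no repopulating library overlapped a Kupffer library at any time. The adaptor was called higher than in Kupffer cells at each of the 6 times. The log2 difference (± SE) at 24 h was 3.79 ± 0.23, adjusted p = 5.3e-10, at 168 h it was 1.86 ± 0.23, adjusted p = 2.9e-05, and at 336 h it was 1.30 ± 0.23, adjusted p = 0.001. The adaptor fell at 168 h against 72 h (log2 difference -1.30 ± 0.26, adjusted p = 0.0011).

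B4galnt1 was highest in monocytes, and its mean was lower at each later time. It had 212, 164, 135 and 139 TPM in monocytes, 103 and 114 TPM at 12 h, 76.4, 91.4 and 79.0 TPM at 24 h, 26.7 and 33.3 TPM at 48 h and 18.3 and 20.0 TPM at 72 h. It had 12.9, 9.47 and 10.3 TPM at 168 h and 4.26, 6.40 and 8.18 TPM at 336 h, against 9.92, 9.75 and 9.81 TPM in PBS Kupffer cells. The transferase was called higher than in Kupffer cells at 12 h (log2 difference 3.33 ± 0.20, adjusted p = 2.7e-10), 24 h (log2 difference 2.94 ± 0.18, adjusted p = 5.3e-10) and 48 h (log2 difference 1.51 ± 0.20, adjusted p = 1e-05). At 72 h every library was still above the Kupffer libraries, with a difference under 2-fold (log2 difference 0.89 ± 0.20, adjusted p = 0.0021), and at 336 h every library was below them (log2 difference -0.61 ± 0.18, adjusted p = 0.023).

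Sort1 was also highest in monocytes, but it was lower by 12 h and then changed little until 72 h. It had 100.2, 90.0, 89.6 and 84.4 TPM in monocytes, 26.0 and 13.0 TPM at 12 h, 28.7, 21.0 and 26.6 TPM at 24 h, 37.4 and 21.9 TPM at 48 h and 30.2 and 34.7 TPM at 72 h. The first step was a fall (log2 difference -2.24 ± 0.32, adjusted p = 1.2e-05), and a second fall came at 168 h against 72 h (log2 difference -1.997 ± 0.34, adjusted p = 0.00026). The sorting receptor had 6.43, 8.20 and 7.56 TPM at 168 h and 4.44, 4.73 and 4.17 TPM at 336 h, against 4.34, 15.1 and 12.0 TPM in PBS Kupffer cells, which were spread widely. Sort1 was called higher than in Kupffer cells at 24 h (log2 difference 1.34 ± 0.31, adjusted p = 0.0014), 48 h (log2 difference 1.52 ± 0.34, adjusted p = 0.0013) and 72 h (log2 difference 1.69 ± 0.34, adjusted p = 0.00086). Without the first Kupffer library, which had the lowest Sort1, the difference at 24 h was 0.86 and under 2-fold.

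Rcn3 and Slco2b1 were near 0 in monocytes and rose in the liver. Rcn3 had 0.394, 0.168, 0.202 and 0.945 TPM in monocytes, 3.92 and 2.75 TPM at 12 h, 10.6, 6.51 and 8.90 TPM at 24 h, 17.7 and 14.1 TPM at 48 h and 11.2 and 12.7 TPM at 72 h. It had 3.02, 3.86 and 4.53 TPM at 168 h and 5.05, 4.37 and 4.16 TPM at 336 h, against 5.14, 5.59 and 3.02 TPM in PBS Kupffer cells. The differences from Kupffer cells were called at 48 h (log2 difference 1.62 ± 0.25, adjusted p = 4.2e-05) and 72 h (log2 difference 1.25 ± 0.25, adjusted p = 0.00082), where no library overlapped, and Rcn3 fell at 168 h against 72 h (log2 difference -1.44 ± 0.25, adjusted p = 3e-04).

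Slco2b1 had 0.031, 0.026, 0.032 and 0 TPM in monocytes, 4.27 and 2.67 TPM at 12 h, 9.28, 4.82 and 5.45 TPM at 24 h, 7.34 and 6.10 TPM at 48 h and 5.06 and 4.84 TPM at 72 h. It had 3.88, 1.70 and 1.04 TPM at 168 h and 1.82, 1.75 and 1.63 TPM at 336 h, against 6.37, 3.52 and 1.26 TPM in PBS Kupffer cells, whose libraries differed several-fold. Limma called no time different from Kupffer cells for this transporter, with differences between -0.63 at 336 h and 0.79 at 24 h. Limma-voom on the recovered reads called it higher at 24 h (1.06, adjusted p = 0.038) and at 48 h (1.18, adjusted p = 0.03). Its rise to 12 h from monocytes was called (log2 difference 2.10 ± 0.37, adjusted p = 9e-05).

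Susd1 had 3.35, 3.45, 4.37 and 4.50 TPM in monocytes, 4.63 and 9.24 TPM at 12 h, 10.3, 9.75 and 10.6 TPM at 24 h, 18.1 and 13.0 TPM at 48 h and 16.0 and 16.0 TPM at 72 h. It had 5.48, 5.29 and 4.62 TPM at 168 h and 5.22, 4.63 and 3.22 TPM at 336 h, against 6.04, 8.32 and 8.22 TPM in PBS Kupffer cells. The sushi-domain gene was called higher than in Kupffer cells at 72 h (log2 difference 1.01 ± 0.22, adjusted p = 0.0016), a difference of 0.87 without the first Kupffer library, and it fell at 168 h against 72 h (log2 difference -1.47 ± 0.22, adjusted p = 7.7e-05).

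**Figure D2:**
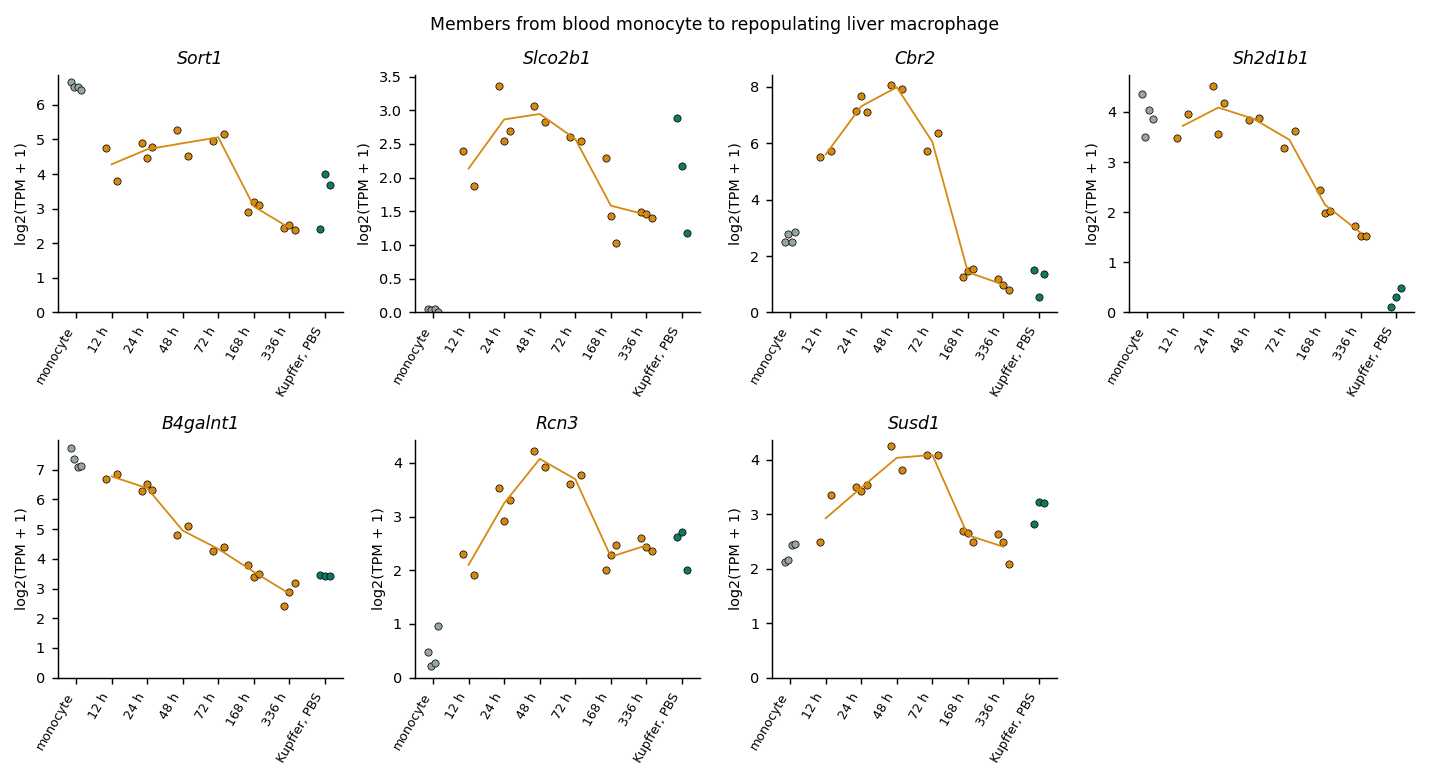
RNA levels as log2(TPM + 1) in blood monocytes, repopulating macrophages 12 to 336 h after diphtheria toxin and Kupffer cells of mice given PBS. Each point is a library and the line joins the means of the repopulating macrophages; Cbr2 peaks at 48 h, and Sh2d1b1 stays above the Kupffer libraries at all 6 times.

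Between consecutive stages, 4 of the 7 genes were called at 12 h against monocytes (3 higher, 1 lower), 2 at 24 h against 12 h (higher), 1 at 48 h against 24 h (lower), 1 at 72 h against 48 h (lower) and 5 at 168 h against 72 h (lower). The shares of all genes called in either direction were 25.2%, 6.16%, 4.26%, 0.422% and 8.15%. The fall of B4galnt1 at 48 h (log2 difference -1.43 ± 0.20, adjusted p = 0.00011) was the call of that step. At 336 h against 168 h, limma called 0 of the 7 genes and 0.0703% of all genes, with 2 of the 7 at an unadjusted p below 0.05 and 0 called by limma-voom. Rcn3 rose at 12 h against monocytes (log2 difference 1.62 ± 0.24, adjusted p = 1.5e-05) and at 24 h against 12 h (log2 difference 1.15 ± 0.25, adjusted p = 0.0027). With quantile normalization the first of these rises was 0.79, and without the second library at 12 h the second rise was 0.95, both under 2-fold.

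Kupffer cells differed from blood monocytes in 6 of the 7 genes, where 35.1% of all genes were called. Sort1 (log2 difference -3.15 ± 0.29, adjusted p = 1.8e-08), Cbr2 (log2 difference -1.52 ± 0.21, adjusted p = 3.6e-06), Sh2d1b1 (log2 difference -3.65 ± 0.22, adjusted p = 5.7e-11) and B4galnt1 (log2 difference -3.89 ± 0.17, adjusted p = 6.2e-13) were lower in Kupffer cells. Slco2b1 (log2 difference 2.05 ± 0.32, adjusted p = 2e-05) and Rcn3 (log2 difference 1.97 ± 0.21, adjusted p = 1.5e-07) were higher in Kupffer cells, at 0.94 and 0.82 under quantile normalization, which is under 2-fold. Susd1 had a difference under 2-fold (log2 difference 0.79 ± 0.18, adjusted p = 0.00086). Among relatives, the sorting receptor gene Sorl1 was lower like Sort1 (-4.84), the transporter genes Slco2a1 (4.24) and Slco1b2 (2.57) were higher like Slco2b1, and the SLAM receptor gene Cd244 was lower like Sh2d1b1 (-5.92). The carbonyl reductases Dhrs3 (3.14) and Cbr1 (2.81) and the ganglioside gene St3gal5 (5.96) went opposite to Cbr2 and B4galnt1. At 48 h against PBS Kupffer cells, Sorl1 (1.09) and Cd244 (1.62) were higher like Sort1 and Sh2d1b1, and Slco1b2 (-2.22) and Slco2a1 (-1.69) were lower.

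Marker lists changed over the same times. The Kupffer identity list summed to 276 to 351 TPM in monocytes, 1151 to 1157 TPM at 12 h, 2672 to 3835 TPM at 24 h, 6951 to 7243 TPM at 48 h, 9654 to 11010 TPM at 72 h, 18190 to 19600 TPM at 168 h and 20470 to 21280 TPM at 336 h, against 24650 to 26850 TPM in PBS Kupffer cells. The monocyte list summed to 39320 to 45710 TPM in monocytes, 12820 to 23340 TPM at 12 h, 8023 to 10140 TPM at 24 h, 6491 to 7040 TPM at 48 h, 4907 to 5797 TPM at 72 h, 6186 to 7225 TPM at 168 h and 6346 to 6861 TPM at 336 h, against 4468 to 6310 TPM in PBS Kupffer cells. The endothelial list summed to 293.4 to 330.5 TPM in monocytes, 1013 to 1777 TPM at 12 h, 712 to 1620 TPM at 24 h, 536 to 767 TPM at 48 h, 699 to 797 TPM at 72 h, 361 to 549 TPM at 168 h and 364 to 419 TPM at 336 h, against 664 to 814 TPM in PBS Kupffer cells. The natural killer and T cell list summed to 12.2 to 15.9 TPM at 12 h, 50.5 to 126 TPM at 24 h, 32.3 to 100.2 TPM at 48 h, 35.6 to 93.8 TPM at 72 h, 63.2 to 75.3 TPM at 168 h and 22.01 to 43.99 TPM at 336 h, against 18.8 to 136 TPM in PBS Kupffer cells. The dissociation list summed to 1455 to 3649 TPM in monocytes, 339 to 402 TPM at 12 h, 231 to 459 TPM at 24 h, 270 to 349 TPM at 48 h, 450 to 608 TPM at 72 h, 891 to 1686 TPM at 168 h and 439 to 672 TPM at 336 h, against 842 to 1125 TPM in PBS Kupffer cells. It was thus below every Kupffer library at the 4 times up to 72 h and again at 336 h. The erythroid list summed to 1701 to 7130 TPM in monocytes, 0.729 to 1.72 TPM at 12 h, 4.02 to 63.6 TPM at 24 h, 12.9 to 15.8 TPM at 48 h, 3.64 to 23.3 TPM at 72 h, 6.97 to 40.5 TPM at 168 h and 7.12 to 30.2 TPM at 336 h, against 26.2 to 140 TPM in PBS Kupffer cells. The part of these lists in the changes of the 7 genes was not tested.

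Across the 22 libraries of this experiment, the genes fell into a few shapes. On log2(TPM + 1) levels, Sort1 and B4galnt1 had a Pearson r of 0.832 and Sh2d1b1 and B4galnt1 one of 0.805, while Slco2b1 and Rcn3 had 0.894 and Rcn3 and Susd1 had 0.805. Cbr2 was nearest to Susd1 (0.741) and Sh2d1b1 (0.726), and the lowest r was that of B4galnt1 and Rcn3, -0.428. These values describe libraries that share stages, and no test was made. The 3 genes with the highest r among the 11373 tested were taken for each, passing over symbols of unnamed transcripts and small RNAs. They were Gyg (0.964), Gypc (0.956) and Rab27a (0.955) for Sort1 and Nfatc2 (0.984), Coro1a (0.979) and Runx3 (0.975) for B4galnt1. They were Slc1a5 (0.954), Cstf2 (0.952) and Mcub (0.952) for Sh2d1b1, Jpt1 (0.963), Eif4a3 (0.961) and Psmb4 (0.954) for Cbr2 and Slc43a3 (0.948), Alad (0.934) and Mcam (0.93) for Slco2b1. For Rcn3 they were Idh2 (0.974), Hmgn1 (0.963) and Phpt1 (0.961), and for Susd1 they were Idh3b (0.942), Snhg6 (0.939) and Hadha (0.93).

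None of the 7 genes was called in BMDMs labelled Nr1h3 KO. Nr1h3 had 8.05 and 8.81 TPM in Nr1h3 KO BMDMs and 41.9 and 43.3 TPM in WT BMDMs. Limma called 0 of the 7 genes and 0.417% of all 10558 genes tested, with 1 of the 7 at an unadjusted p below 0.05 and 0 called by limma-voom. Slco2b1, Sh2d1b1 and Rcn3 were below 1 TPM in all 4 BMDM libraries and passed the filter on low values through the Kupffer libraries of the same table, so the comparison bears on the other 4 genes. Sort1 had 9.06 and 8.92 TPM in Nr1h3 KO and 12.7 and 11.9 TPM in WT BMDMs (log2 difference -0.41 ± 0.10, adjusted p = 0.086), the opposite direction to Kupffer cells. Cbr2 had 75.9 and 70.7 TPM in Nr1h3 KO and 101 and 96.1 TPM in WT BMDMs (log2 difference -0.42 ± 0.22, adjusted p = 0.54). B4galnt1 had 36.6 and 36.1 TPM in Nr1h3 KO and 36.9 and 39.2 TPM in WT BMDMs.

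In Smad4 knockout BMDMs, Slco2b1 was the gene of the 7 that was called higher, as it was in Smad4 knockout Kupffer cells. Untreated, it had 22.9 and 23.7 TPM in knockout and 7.86 and 8.33 TPM in control BMDMs (log2 difference 1.42 ± 0.07, adjusted p = 2.6e-08). With DLL4 it had 21.1 and 18.9 TPM in knockout and 7.07 and 7.73 TPM in control BMDMs (log2 difference 1.32 ± 0.07, adjusted p = 6.4e-08). The call held also with DLL4 and DAPT, a second gamma-secretase inhibitor (log2 difference 1.30 ± 0.07, adjusted p = 4.8e-08), and with DLL4 and TGF-beta (log2 difference 1.32 ± 0.07, adjusted p = 1.2e-08). With TGF-beta alone Slco2b1 had 28.0 and 28.2 TPM in knockout and 18.5 and 20.3 TPM in control BMDMs, a smaller difference under 2-fold (log2 difference 0.51 ± 0.07, adjusted p = 0.00014). No knockout library overlapped a control library in any of the 5 conditions. Smad4 itself had 10.5 and 9.90 TPM in untreated knockout and 24.95 and 25.3 TPM in untreated control BMDMs.

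Counting the 6 genes tested here, knockout against control gave 1 call untreated, 1 with DLL4, 1 with DLL4 and DAPT, 1 with DLL4 and TGF-beta, and 0 with TGF-beta, where 3 genes had an unadjusted p below 0.05 and limma-voom also called 0. Untreated, limma-voom called 2, Slco2b1 and Sh2d1b1 (1.02 for the adaptor, adjusted p = 0.00047). The rule called 1.13%, 0.847%, 1.26%, 2.7% and 1.85% of all 10267 genes in these comparisons. Rcn3 stayed between 0.592 and 3.62 TPM in all 20 libraries and was not tested. The median of the 6 genes ran from 0.10 with TGF-beta to 0.22 with DLL4, and that of all genes from -0.05 with DLL4 and DAPT to 0.00 with DLL4 and TGF-beta. Over the 5 conditions the list of 17 monocyte genes summed to 9995 to 12930 TPM in knockout and 16090 to 24810 TPM in control BMDMs. The list of 8 neutrophil genes summed to 2579 to 4009 TPM in knockout and 4605 to 8351 TPM in control BMDMs. The part of these lists in the results was not tested.

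Sh2d1b1 depended on the treatment. It had 8.74 and 7.36 TPM in untreated knockout and 4.44 and 3.60 TPM in untreated control BMDMs (log2 difference 0.85 ± 0.13, adjusted p = 0.00063). With DLL4 and TGF-beta the order turned, with 19.4 and 16.9 TPM in knockout and 29.4 and 28.0 TPM in control BMDMs (log2 difference -0.64 ± 0.13, adjusted p = 0.0026). Neither difference reached 2-fold. Sort1 had 43.8 and 43.1 TPM in untreated knockout and 35.1 and 33.2 TPM in untreated control BMDMs (log2 difference 0.34 ± 0.15, adjusted p = 0.1), and the sorting receptor that ranked first in Kupffer cells was thus already high in control BMDMs.

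TGF-beta raised Slco2b1 in control BMDMs, to 18.5 and 20.3 TPM with TGF-beta against 7.86 and 8.33 TPM untreated (log2 difference 1.16 ± 0.07, adjusted p = 1.9e-08). In Smad4 knockout BMDMs it had 28.0 and 28.2 TPM with TGF-beta and 22.9 and 23.7 TPM untreated (log2 difference 0.26 ± 0.07, adjusted p = 0.051). The response differed between the genotypes (interaction -0.90 ± 0.10, adjusted p = 7.1e-05, log2 ± SE), though by less than 2-fold. Slco2b1 was thus high in the absence of Smad4 and also after TGF-beta in cells with Smad4. Of 17 TGF-beta and SMAD targets, 8 rose with TGF-beta in control BMDMs, Pmepa1 most (5.28), and 1, Pmepa1 again (3.26), in knockout BMDMs.

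DLL4 raised Sh2d1b1 in control BMDMs, to 9.68 and 8.97 TPM with DLL4 against 4.44 and 3.60 TPM untreated (log2 difference 1.04 ± 0.13, adjusted p = 3.4e-05). TGF-beta on top of DLL4 raised it further, to 29.4 and 28.0 TPM with both ligands (log2 difference 1.53 ± 0.13, adjusted p = 4.5e-07 against DLL4 alone). With DAPT added to DLL4 the adaptor had 4.98 and 5.22 TPM in control BMDMs, under 2-fold below DLL4 alone (log2 difference -0.76 ± 0.13, adjusted p = 0.00083). In knockout BMDMs it had 19.4 and 16.9 TPM with both ligands and 11.6 and 12.0 TPM with DLL4 alone (log2 difference 0.58 ± 0.13, adjusted p = 0.013). The response to TGF-beta on DLL4 differed between the genotypes (interaction -0.94 ± 0.19, adjusted p = 0.0037, log2 ± SE). The Notch target Hes1 was higher with DLL4 (4.19) and lower with DAPT on DLL4 (-3.95) in the same control BMDMs. The rise of Sh2d1b1 with DLL4 was 0.92 without the second untreated control library and 1.00 without the first DLL4 control library, just under 2-fold.

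Cbr2 moved the other way. It had 5.67 and 5.61 TPM with both ligands and 14.8 and 15.6 TPM with DLL4 alone in control BMDMs (log2 difference -1.29 ± 0.10, adjusted p = 2.2e-07). In knockout BMDMs it had 10.1 and 8.75 TPM with both ligands and 13.2 and 14.7 TPM with DLL4 alone (log2 difference -0.53 ± 0.10, adjusted p = 0.0054), and the response differed between the genotypes (interaction 0.76 ± 0.15, adjusted p = 0.0031, log2 ± SE). The reductase was thus lower with both ligands in cells of either genotype, and less so in the knockout. B4galnt1 had 99.1 and 101 TPM in knockout and 148 and 138 TPM in control BMDMs with both ligands, and its interaction was -0.40 ± 0.09, adjusted p = 0.0085 (log2 ± SE).

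Over these ligand comparisons in control BMDMs, 1 of the 6 genes was called with TGF-beta, 1 with DLL4, 0 with DAPT on DLL4 and 2 with TGF-beta on DLL4, where 4.17%, 4.06%, 2.09% and 6.66% of all genes were called. In knockout BMDMs limma called 0 of the 6 in each of the 4 comparisons, where it called 0.545%, 3.39%, 1.82% and 0.799% of all genes. For the comparisons with 0 calls, DAPT on DLL4 in control BMDMs had 3 genes at an unadjusted p below 0.05. In knockout BMDMs there were 3 with TGF-beta, 3 with DLL4, 1 with DAPT on DLL4 and 3 with TGF-beta on DLL4, and limma-voom called 0 in each. Interactions of genotype with these treatments were called for 0 of the 6 genes, where 1.2%, 0.0%, 0.0% and 2.23% of all genes were called. In these the unadjusted p was below 0.05 for 1, 2, 1 and 3 genes, and limma-voom called 1, in the interaction with TGF-beta on DLL4.

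In C57BL/6J BMDMs the same ligands were given for 24 or 72 h. Sh2d1b1 had 22.1 and 23.6 TPM with DLL4 and TGF-beta for 24 h and 8.01 and 6.51 TPM with DLL4 alone (log2 difference 1.53 ± 0.25, adjusted p = 0.00029). At 72 h it had 9.45 and 10.5 TPM with both ligands and 11.7 and 11.6 TPM with DLL4 alone (log2 difference -0.21 ± 0.25, adjusted p = 0.54), so the rise was seen at the earlier time. Slco2b1 was called at the later time, with 22.8 and 22 TPM with both ligands and 8.34 and 9.25 TPM with DLL4 alone at 72 h (log2 difference 1.26 ± 0.15, adjusted p = 2.4e-05), and 2.49 and 2.22 against 1.82 and 1.24 TPM at 24 h (log2 difference 0.41 ± 0.15, adjusted p = 0.055). Whether the effects differed between the times was not tested. Some of the 72 h libraries carry a 24 h treatment label, and the title was followed.

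Cbr2 had 8.73 and 9.62 TPM with DLL4 for 24 h and 3.90 and 4.15 TPM untreated (log2 difference 1.02 ± 0.19, adjusted p = 0.0011), and 2.58 and 3.12 TPM when TGF-beta was added to DLL4 (log2 difference -1.40 ± 0.19, adjusted p = 5.8e-05 against DLL4 alone). At 72 h it was lower with DLL4, at 0.591 and 0.559 TPM with DLL4 and 2.61 and 2.33 TPM untreated (log2 difference -1.14 ± 0.19, adjusted p = 0.00084). The rise of the reductase with DLL4 at 24 h was just past 2-fold, and was 0.92 with quantile normalization, 0.95 without the second DLL4 library and 0.98 without the first untreated library. Time in culture also raised 2 of the genes. Slco2b1 had 6.68 and 7.40 TPM at 72 h and 1.35 and 1.25 TPM at 24 h (log2 difference 1.81 ± 0.15, adjusted p = 2.5e-07), and Rcn3 had 9.03 and 7.54 TPM at 72 h and 1.44 and 0.838 TPM at 24 h in untreated BMDMs (log2 difference 2.13 ± 0.16, adjusted p = 7.3e-08).

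With DMHCA, the sterol ligand of LXR, 1 of the 7 genes was called lower when it was given alone at 24 h. On both ligands, 0 were called lower at 24 h and 4 at 72 h. Any link of these changes to those in Kupffer cells with the Nr1h3 label was not tested. Sort1 had 16.4 and 14.5 TPM with DMHCA for 24 h and 40.8 and 39.2 TPM untreated (log2 difference -1.32 ± 0.08, adjusted p = 2.1e-08). On top of DLL4 and TGF-beta, Sort1 had 26.7 and 24.7 TPM with DMHCA and 40.99 and 40.5 TPM without it at 24 h (log2 difference -0.64 ± 0.08, adjusted p = 6.9e-05). At 72 h it had 21.2 and 24.9 TPM with DMHCA and 66.3 and 73.4 TPM without it (log2 difference -1.56 ± 0.08, adjusted p = 1.5e-08). The groups of the sorting receptor did not overlap in any of the 3 comparisons.

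Slco2b1 had 1.02 and 1.71 TPM with DMHCA on both ligands for 72 h and 22.8 and 22 TPM with the ligands alone (log2 difference -3.32 ± 0.15, adjusted p = 8.4e-09). Its level with DMHCA was also below that of untreated cells of the same time, 72 h. At 24 h it had 2.49 and 2.17 TPM with DMHCA and 2.49 and 2.22 TPM without it (log2 difference -0.01 ± 0.15, adjusted p = 0.98). Sh2d1b1 had 1.58 and 4.67 TPM with DMHCA and 9.45 and 10.5 TPM without it at 72 h (log2 difference -1.52 ± 0.25, adjusted p = 0.00034), and Susd1 had 2.75 and 3.86 TPM with DMHCA and 8.87 and 7.85 TPM without it (log2 difference -1.13 ± 0.14, adjusted p = 3.1e-05). Both falls rested on the first DMHCA library, which was the lower one, and without it they were -0.95 for the adaptor and -0.94 for Susd1. With quantile normalization that of Susd1 was -0.99, under 2-fold. Rcn3 had 14.3 and 17.7 TPM with DMHCA and 17.0 and 16.0 TPM without it at 72 h (log2 difference -0.05 ± 0.16, adjusted p = 0.86).

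The direction was not the same for all. With DMHCA alone at 24 h, Sh2d1b1 had 7.91 and 8.46 TPM with DMHCA and 4.37 and 3.67 TPM untreated (log2 difference 0.87 ± 0.25, adjusted p = 0.01), while Cbr2 had 1.94 and 1.37 TPM with DMHCA and 3.90 and 4.15 TPM untreated (log2 difference -0.93 ± 0.19, adjusted p = 0.0012), both under 2-fold. Of the 17 LXR targets, 9 rose and 2 fell with DMHCA alone at 24 h, with Scd1 at 4.66 and Abca1 at 4.59, and 9 rose at 72 h on the ligands, with Scd1 at 3.06. Marker lists also moved with DMHCA. Alone at 24 h, the neutrophil list summed to 273 to 290 TPM with DMHCA and 1812 to 2355 TPM untreated, and the monocyte list to 15210 to 15810 TPM with DMHCA and 27160 to 31050 TPM untreated. On both ligands at 72 h, the neutrophil list summed to 2120 to 2319 TPM with DMHCA and 7169 to 7175 TPM without it, and the monocyte list to 10460 to 11360 TPM with DMHCA and 14580 to 14740 TPM without it. A list of 9 dendritic cell genes summed to 1.68 to 2.50 TPM with DMHCA and 41.7 to 44.6 TPM without it in these cells. The part of these lists in the results was not tested.

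Over the C57BL/6J BMDM comparisons, the 7 genes had 1 call with DLL4 at 24 h, 2 with TGF-beta on DLL4 at 24 h, 0 with DMHCA on both ligands at 24 h and 1 with DMHCA alone at 24 h, where 2.75%, 3.8%, 1.23% and 5.43% of all 10908 genes were called. At 72 h there was 1 call with DLL4, 1 with TGF-beta on DLL4 and 4 with DMHCA on both ligands, where 1.73%, 5.65% and 5.21% of all genes were called, and untreated cells at 72 h against 24 h had 2 calls where 13.8% of genes were called. For the 0 calls with DMHCA on both ligands at 24 h, 4 genes had an unadjusted p below 0.05 and limma-voom called 2. For DMHCA alone at 24 h limma-voom called 4. The median log2 difference of the 7 genes with DMHCA at 72 h was -1.13, and that of all genes was -0.06.

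**Figure D3:**
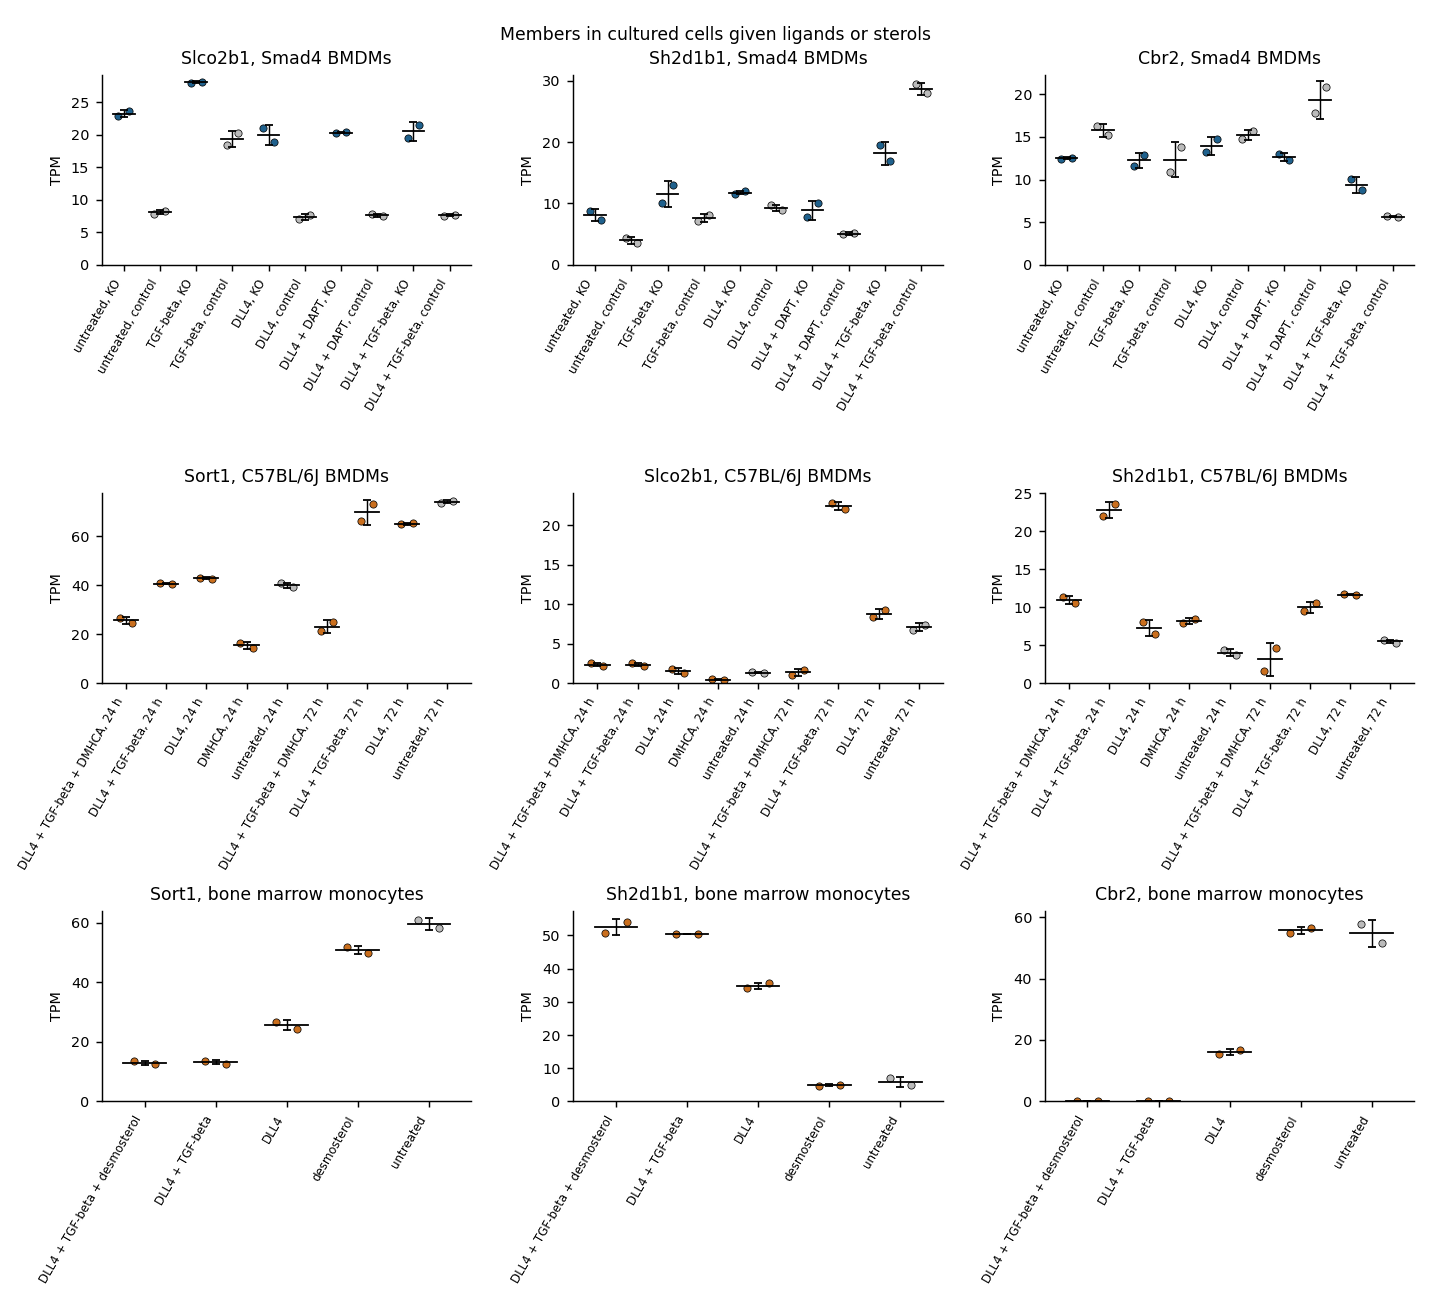
RNA levels in TPM (points, libraries; bars, mean ± SD) in Smad4 knockout and control BMDMs (top row), C57BL/6J BMDMs (middle row) and bone marrow monocytes (bottom row). Slco2b1 lies higher in Smad4 knockout than in control BMDMs in all 5 conditions, and Sort1 lies lower with DMHCA than without it at both times.

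Bone marrow monocytes were treated for 48 h, and their responses were not tested against those of BMDMs. DLL4 lowered Sort1, which had 26.8 and 24.4 TPM with DLL4 and 60.9 and 58.3 TPM untreated (log2 difference -1.19 ± 0.06, adjusted p = 1.4e-07), and TGF-beta on DLL4 brought it to 13.6 and 12.7 TPM (log2 difference -0.91 ± 0.06, adjusted p = 2.3e-06 against DLL4 alone). Cbr2 had 15.5 and 16.8 TPM with DLL4 and 57.8 and 51.6 TPM untreated (log2 difference -1.70 ± 0.10, adjusted p = 1.8e-07), and with TGF-beta added it was nearly lost, at 0.255 and 0.091 TPM (log2 difference -3.87 ± 0.10, adjusted p = 2.7e-09 against DLL4 alone). Both genes were thus lower with the ligands. Sh2d1b1 rose, with 34.2 and 35.5 TPM with DLL4 and 6.95 and 4.91 TPM untreated (log2 difference 2.39 ± 0.11, adjusted p = 5.5e-08), and it had 50.4 and 50.4 TPM with both ligands. The SLAM receptor gene Cd244 also rose with DLL4 (4.64), as did Sorl1 (3.99), a relative of Sort1 that went the opposite way to it. Sh2d1b2 reached at most 1.09 TPM in this table.

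B4galnt1 had 96.7 and 104 TPM with both ligands and 60.8 and 59.4 TPM with DLL4 alone (log2 difference 0.73 ± 0.04, adjusted p = 8.4e-07), a rise under 2-fold, and Slco2b1 had 5.93 and 5.74 TPM with DLL4 and 3.56 and 3.25 TPM untreated (log2 difference 0.64 ± 0.09, adjusted p = 0.00018). Desmosterol called 0 of the 6 genes tested, alone (0.244% of all 10234 genes called) or on both ligands (0.205%), with 2 genes at an unadjusted p below 0.05 each time and 0 called by limma-voom. Alone, Sort1 had 51.8 and 49.8 TPM with desmosterol and 60.9 and 58.3 TPM untreated (log2 difference -0.23 ± 0.06, adjusted p = 0.05). The LXR targets Scd1 (2.78) and Abca1 (2.69) rose with desmosterol in the same libraries. DLL4 called 3 of the 6 genes where 19.5% of all genes were called, and TGF-beta on DLL4 called 1 where 8.81% were. The monocyte list summed to 5398 to 5590 TPM with DLL4, 2369 to 2436 TPM with both ligands and 25210 to 25270 TPM untreated, and the endothelial list to 763 to 789, 1711 to 1765 and 131 to 142 TPM in these 3 groups. The part of these lists in the changes was not tested.

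Blocking Notch in the repopulating liver changed Cbr2 most, and in opposite directions in the 2 experiments. Cbr2 had 51.7, 56.2 and 60.3 TPM in macrophages of mice given LY411575 and 251 and 232 TPM in their controls (log2 difference -2.09 ± 0.10, adjusted p = 8.4e-08). It had 229, 201, 239.9 and 248 TPM in macrophages of mice given the antibodies and 87.7 and 95.6 TPM in their controls (log2 difference 1.31 ± 0.09, adjusted p = 1.5e-05). Treated and control libraries did not overlap in either experiment, and the controls of the experiments stood far apart. The effects differed (interaction -3.40 ± 0.13, adjusted p = 1.3e-07, log2 ± SE, LY411575 minus antibodies). The experiments also differ in the sex of the mice, and sex and treatment cannot be told apart in this difference. The control libraries carry the inhibitor or the antibodies in a label, and their titles were followed.

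B4galnt1 also went opposite ways, under 2-fold in each. It had 104, 104 and 92.1 TPM with LY411575 and 72.6 and 76.4 TPM in controls (log2 difference 0.42 ± 0.08, adjusted p = 0.0033). It had 66.0, 67.7, 59.5 and 68.5 TPM with the antibodies and 94.9 and 85.5 TPM in controls (log2 difference -0.46 ± 0.08, adjusted p = 0.0037), and the difference of the effects was 0.88 ± 0.12, adjusted p = 0.00063 (log2 ± SE). The adaptor was lower and the sorting receptor higher in both experiments, each under 2-fold. Sh2d1b1 had 12.47, 15.2 and 14.1 TPM with LY411575 and 23.8 and 24.5 TPM in controls (log2 difference -0.76 ± 0.14, adjusted p = 0.0017), and 14.8, 19.5, 13.8 and 17.8 TPM with the antibodies and 24.0 and 24.1 TPM in controls (log2 difference -0.53 ± 0.13, adjusted p = 0.022). Sort1 had 37.9, 39.6 and 37.4 TPM with LY411575 and 30.8 and 30.0 TPM in controls (log2 difference 0.32 ± 0.07, adjusted p = 0.0075), and 44.4, 44.5, 44.0 and 43.1 TPM with the antibodies and 34.7 and 29.8 TPM in controls (log2 difference 0.44 ± 0.07, adjusted p = 0.0022).

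Of the 5 genes tested here, 1 was called in each experiment and 1 in their difference, each time Cbr2, where 6.38%, 2.07% and 5.38% of all 9885 genes were called. Slco2b1 (at most 3.97 TPM) and Rcn3 (at most 3.93 TPM) were not tested. The other carbonyl reductases Dcxr (-1.73) and Cbr1 (-1.36) were lower with LY411575 like Cbr2, and Dhrs3 (1.13) was higher. The monocyte list summed to 20140 to 21220 TPM with LY411575 and 9240 to 9494 TPM in its controls, and to 13120 to 18260 TPM with the antibodies and 11540 to 13880 TPM in their controls. The Kupffer identity list summed to 1763 to 1806 TPM with LY411575 and 3044 to 3062 TPM in its controls, and to 2097 to 2560 TPM with the antibodies and 2181 to 2280 TPM in their controls. The part of these lists in the results was not tested.

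**Figure D4:**
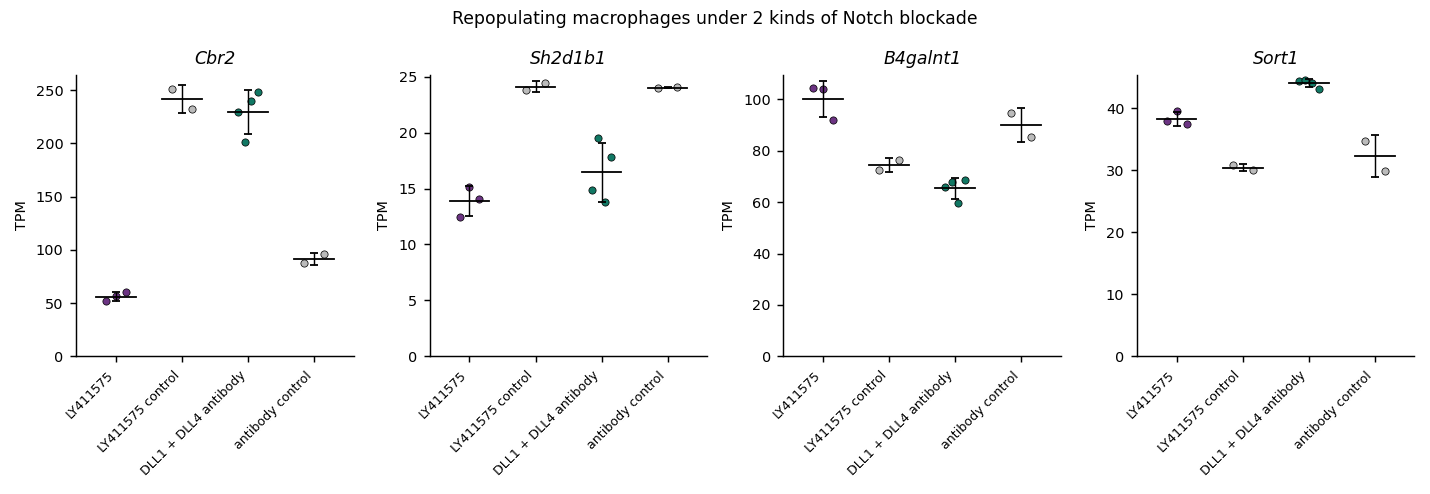
RNA levels in TPM (points, libraries; bars, mean ± SD) in macrophages 24 h after diphtheria toxin with LY411575 or with antibodies to DLL1 and DLL4, each beside its controls. Cbr2 lies lower with LY411575 and higher with the antibodies than in the controls.

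Liver cells sorted on STAB2 hold mostly endothelial cells, and the 7 genes were read in them at unlike levels. Rcn3 had 74.5 and 61.9 TPM in STAB2-low, 86.1 and 80.5 TPM in STAB2-intermediate and 66.8 and 94.0 TPM in STAB2-high cells, and Slco2b1 had 44.6 and 18.8 TPM in STAB2-low, 61.6 and 38.5 TPM in STAB2-intermediate and 63.9 and 38.1 TPM in STAB2-high cells. Cbr2 reached at most 1.24 TPM and Sh2d1b1 at most 0.275 TPM, and neither was tested. Of the 5 genes tested, 2 were called in STAB2-low against STAB2-high cells, where 13.6% of 10576 genes were called. Susd1 had 4.13 and 3.76 TPM in STAB2-low and 16.6 and 12.9 TPM in STAB2-high cells (log2 difference -1.66 ± 0.20, adjusted p = 0.0015). B4galnt1 had 29.1 and 17.3 TPM in STAB2-low and 10.2 and 10.3 TPM in STAB2-high cells (log2 difference 1.06 ± 0.24, adjusted p = 0.019), a call lost without the first STAB2-low library (0.70, adjusted p = 0.05), without the first STAB2-high library (1.06, adjusted p = 0.071), without the second (1.07, adjusted p = 0.064) and with quantile normalization (0.94, adjusted p = 0.028). In STAB2-intermediate against STAB2-high cells limma called 0 of the 5 and 0.00946% of all genes, with 1 of the 5 at an unadjusted p below 0.05 and 0 called by limma-voom. The endothelial list summed to 13120 to 14640 TPM in STAB2-low, 28810 to 32010 TPM in STAB2-intermediate and 32010 to 33410 TPM in STAB2-high cells, and Clec4f, the Kupffer cell lectin, reached at most 26.5 TPM. The monocyte list summed to 253 to 412 TPM in STAB2-low, 71.4 to 140 TPM in STAB2-intermediate and 54.5 to 56.0 TPM in STAB2-high cells. The dissociation list summed to 1859 to 2425 TPM in STAB2-low, 780 to 1356 TPM in STAB2-intermediate and 465 to 809 TPM in STAB2-high cells. The part of these lists in the calls was not tested.

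**Figure D5:**
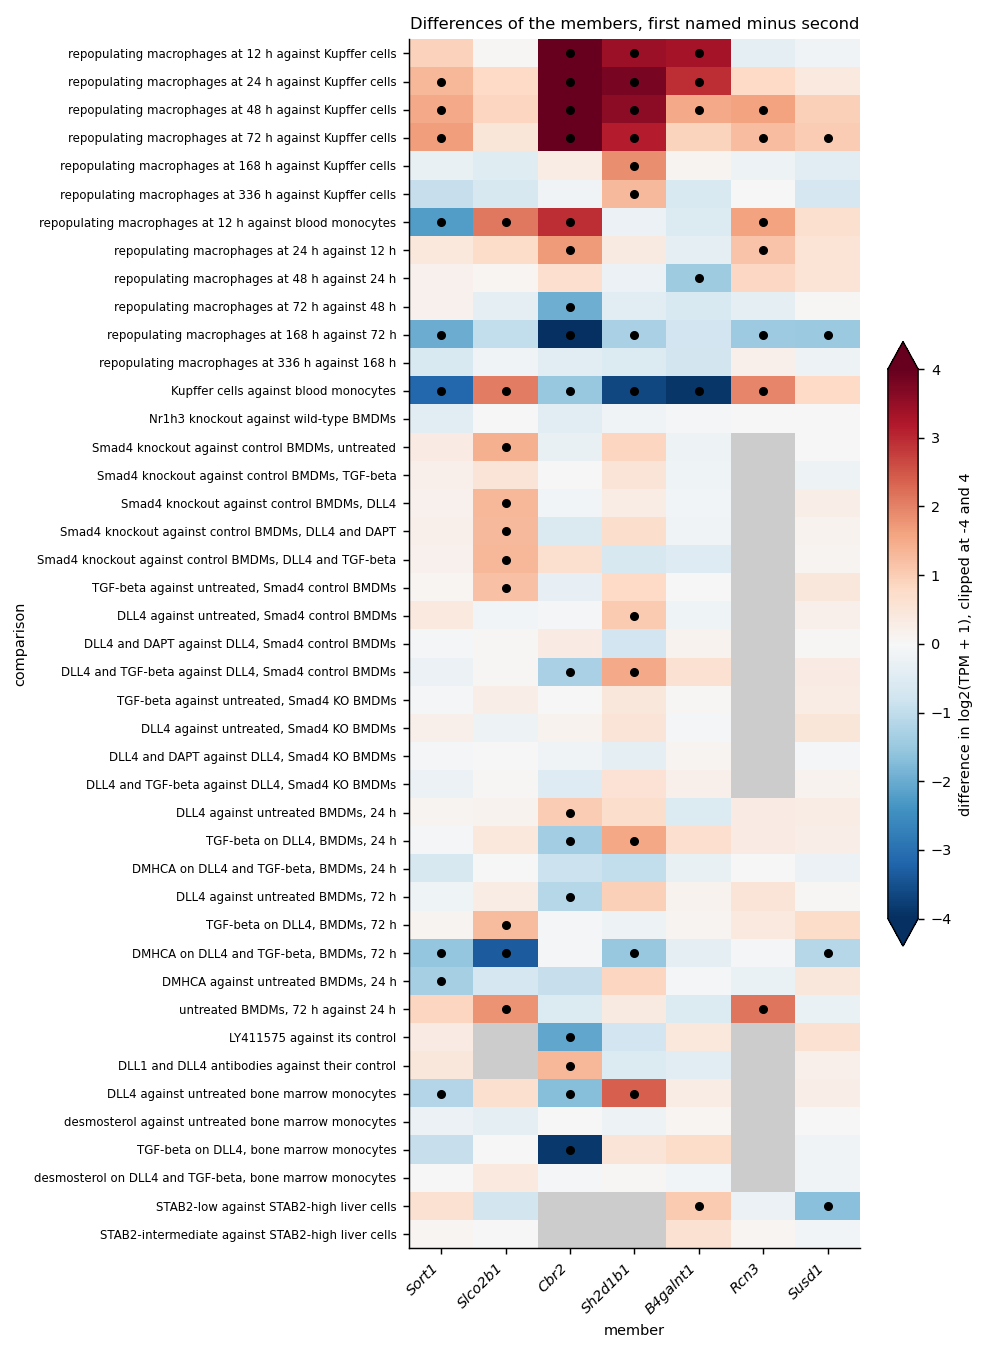
Log2 differences of the 7 genes on log2(TPM + 1) in 43 comparisons, as colour clipped at -4 and 4, with dots where a difference was called and grey where a gene was not tested. The knockout Kupffer cell contrasts, which chose the genes, are left out. Cbr2 and Sh2d1b1 are high against Kupffer cells up to 72 h, and Slco2b1 is called in 4 of the 5 comparisons of Smad4 knockout with control BMDMs.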

How the data were processed

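RNA was enriched for poly(A) and sequenced as stranded libraries, per the labels' protocols. Reads were aligned with STAR to mm10 and counted with HOMER, per the submitters' processing notes, with versions not given in the sources used here. The deposited tables hold TPM values per gene that the authors made from the reads, with 1 transcript listed per gene. Low values were whole multiples of the worth of 1 read in at least 99.47% of cases (within 0.1 read, up to 20 reads), which gave whole reads per gene, 7830287 to 27776205 per library.

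Each table was analysed on its own. Groups were taken from the labels, titles first where labels conflict. Values were tested as log2(TPM + 1) with limma 3.58.1 (R 4.3.3), as group means with a trended variance, on genes with at least 4 TPM in at least 2 libraries. The p-values were adjusted over all genes tested, and a call needs an adjusted p below 0.05 and a 2-fold change. Errors after ± are standard errors in log2 differences and SDs in figures, and fold changes on log2(TPM + 1) understate those of low genes. Alternatives were limma-voom on the recovered reads, no filter on low values, a pseudocount of 0.25, quantile normalization, a replicate block, and leaving out each library in turn. In the Nr1h3 table the BMDM comparison shares its variance estimate with the Kupffer cells. The scripts were tested on simulated data.

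The 7 genes and all lists were chosen with earlier results of these data known. The genes named are these 7, Nr1h3, Smad4, Timd4 and Sh2d1b2 as checks, called members of their family and pathway lists with large differences, and the 3 genes most correlated with each over the 22 repopulation libraries, unnamed transcripts and small RNAs passed over. Cx3cr1, Mmp13, Lgals1, Nfatc2, Glis3 and Ms4a4a are named for their ranks beside them. Motifs were searched in RefSeq promoters with Python 3.11.15.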

Additional observations from a re-analysis of the deposited data

Results flagged for a closer look

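Results for 4 of the genes stand out because the effect of a treatment differed between genotypes or between experiments by a test of the difference itself (limma interaction, adjusted over all genes). In Smad4 knockout against control BMDMs, the response of Slco2b1 to TGF-beta differed by -0.90 on the log2 scale. The response to TGF-beta on DLL4 differed by -0.94 for Sh2d1b1, by 0.76 for Cbr2 and by -0.40 for B4galnt1. Between the LY411575 and the antibody experiments, the effect on Cbr2 differed by -3.40 and that on B4galnt1 by 0.88. The sex of the mice differs between these experiments, and so does the level of Cbr2 in their controls.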

How the results depend on the processing

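The 67 calls of the 7 genes kept their direction and their side of both thresholds under limma-voom, without the filter on low values and with a pseudocount of 0.25. Under quantile normalization 61 did and 6 fell under 2-fold, as given beside them. No called difference changed sign under any alternative. In STAB2-low against STAB2-high cells, 2 calls became 1 with quantile normalization, and leaving out each library in turn gave 1 to 2. Leaving out 1 library at a time ended the call in 12 of 1297 fits of single genes, as given beside the results. Where this left 1 library in a group, that library is assumed to vary like the other groups. A fit of the Nr1h3 BMDM libraries alone, in which 4 of the 7 genes pass the filter, also called 0.

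The numbers of the replicates were not taken to pair samples. STAB2 titles repeat numbers across the fractions. The first TIM4-positive and the first TIM4-negative library of Smad4 knockout Kupffer cells also share a number in their titles. No label states what these numbers mark, and the Smad4 Kupffer libraries were not in the checks given next. The median correlation of the deviations of libraries with the same number was -0.027 to 0.136 per table, and no table had every pair over 0.1. With a replicate block, 29 of the 29 calls that could be fitted with it were kept, and the STAB2 count was 2. Over all genes, STAB2-intermediate against STAB2-high had 27 calls with the block and 1 without it.

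Quantile normalization moved the median of all genes by over 0.1 in 6 comparisons and by at most 0.183. With 2 libraries in most groups, changes under 2-fold and genes under 4 TPM were read with little precision.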
